A study of Mus musculus with 60 samples.

Results

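Whole blood of 12 male CD2F1 mice was compared on Day 0, 6 mice given BIO 300 at 200 mg/kg (animals 19 to 24) and 6 given vehicle (animals 13 to 18), out of 60 mice in the series. The mice were chosen by their group labels and animal numbers. The active compound of BIO 300 is genistein, the soy isoflavone that binds estrogen receptor beta in preference to estrogen receptor alpha. Both groups were gavaged with 12 doses over 6 days, the vehicle being water with methylcellulose and polyvinylpyrrolidone, and both were bled 24 h after the last dose. None of the 12 mice was irradiated. They were 5 to 6 weeks old when bought and housed 3 to a cage, and the cage of each mouse was not given in the sources used here. Blood was drawn from the inferior vena cava under isoflurane into PAXgene tubes, so that 1 library represents all cells of 1 terminal bleed. The other mice of the series received 50 or 100 mg/kg, were sampled a day later, or were irradiated.

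Whole-blood RNA is a mixture. Nucleated leukocytes carry most of the transcript types, while reticulocytes, the young red cells that keep RNA after losing the nucleus, and platelets, the fragments of megakaryocytes, add a small set of very abundant messages. Red cell genes fall into globins, membrane and skeleton proteins, the enzymes of heme synthesis, and the transcription factors and autophagy receptors of red cell maturation. Hepatocytes make albumin, transferrin and most other plasma proteins, and in mice the major urinary proteins, and these serve as markers of liver RNA. In bulk RNA a class can be low because fewer cells of that type were present or because each held less RNA, and these cannot be told apart.

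Total counts, in M (mega-counts), were 15.1 to 25.2 (median 24.2) in the vehicle mice and 22.3 to 28.5 (median 25.3) in the 200 mg/kg mice, a difference in means of 2.48 M (exact permutation test, both sides, p = 0.195). Of 202 tested genes in 14 lists of blood-cell markers, 186 averaged at least 1 CPM (counts scaled to a common library total, here with TMM over the 12 mice), so the defining genes of blood cells were present. Globin transcripts took 6.47% to 11.3% of the counts of vehicle mice and 10.3% to 13.8% at 200 mg/kg, from libraries that the methods describe as globin-depleted. Vehicle mouse 17 and 200 mg/kg mouse 21 also held liver transcripts, vehicle mouse 16 held muscle transcripts and was the shallowest library, and 200 mg/kg mouse 22 had the lowest TMM factor (0.604, against 0.870 to 1.33 in the other 11). Fits without these mice are given beside the results they move.

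No gene passed the test at 200 mg/kg. With edgeR's quasi-likelihood test, 0 of 23795 genes (0%) had a Benjamini-Hochberg adjusted p under 0.05 together with more than a 2-fold change, the limits for a differentially expressed gene (DEG), and the smallest adjusted p was 0.546. At an unadjusted p under 0.05 there were 2145 genes (9.01%), 1217 with higher (5.11%) and 928 with lower (3.9%) values at 200 mg/kg. Among genes that averaged at least 1 CPM, 7.55% were higher and 4.48% lower at that limit. DESeq2's Wald test on the same counts gave 2 DEGs, Npas2 and Gm32051, and 4 genes under an adjusted p of 0.05 at any fold. The 95% interval of the fold change lay inside 2-fold in either direction for 13812 genes (58%), and for 86.6% of the 13473 genes of at least 1 CPM.

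Past 2-fold, whatever the p, 420 genes (1.77%) had higher and 1873 (7.87%) had lower estimates at 200 mg/kg, and among genes of at least 1 CPM the shares were 0.0816% and 4.51%. The excess on the lower side came with 1 vehicle animal. Mouse 17 had the highest value among the vehicle mice for 1434 of the 1873 genes, and for 917 of them it held over 80% of the group's summed CPM. Mouse 16 was highest for 243. Without mouse 17 the counts were 1169 higher and 579 lower, and without mice 17 and 21 together, a fit added after the data had been seen, they were 521 and 652. At an unadjusted p under 0.05, 7.29% of genes were higher and 4.93% lower without mouse 17, and 5.43% and 3.65% without mice 17 and 21. The 2-fold sets were made of scarce transcripts, with a median over genes of 0.0614 mean CPM for the higher and 0.283 for the lower set.

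Liver genes were set apart from the blood-cell genes. The 3 liver lists, hepatocyte plasma proteins, hepatocyte enzymes and transporters, and major urinary proteins, held 56 tested genes. In mouse 17, 55 of the 56 exceeded 1 CPM and the lists took 2.72% of all counts. In mouse 21, 55 exceeded 1 CPM and the share was 0.412%. In each of the other 10 mice, 5 to 7 of the genes exceeded 1 CPM, and the summed level was 61.6 to 102 CPM against 28500 in mouse 17 and 4733 in mouse 21. Alb, which encodes albumin, was at 6624 CPM in mouse 17, at 967 CPM in mouse 21 and at 0 to 1.28 CPM in the others. The major urinary protein gene Mup3 reached 1384 CPM in the first and 216 CPM in the second of these animals. The 1 high mouse in each group thus stood far above the other 5, and the groups overlapped.

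**Figure D1:**
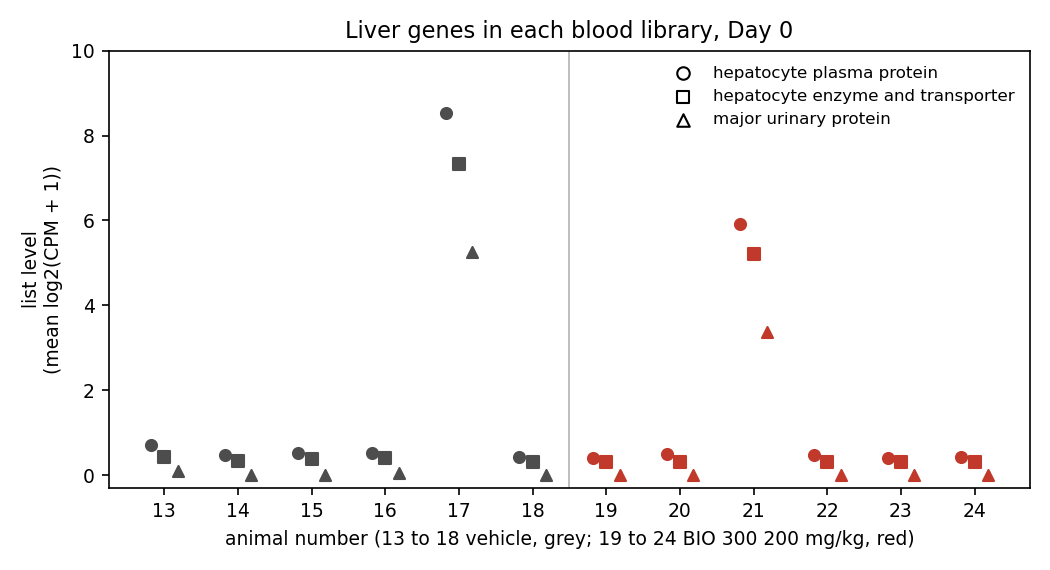
Level of 3 lists of liver genes (mean log2(CPM + 1) over the list's tested genes, y axis) in each of the 12 mice (x axis, animal number; vehicle grey, BIO 300 200 mg/kg red). Vehicle mouse 17 (8.54 for hepatocyte plasma proteins) and 200 mg/kg mouse 21 (5.93) stand above the other 10 mice, whose levels are at most 0.71.

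Median log2 fold changes of the liver lists followed whichever of the 2 animals was in the fit. With all 12 mice the medians were -2.47 for hepatocyte plasma proteins, -2.13 for hepatocyte enzymes and transporters and -2.27 for major urinary proteins, beside -0.04 over all genes tested. Without mouse 17 they were 7.36, 7.57 and 8.12. Without mice 17 and 21 they were -0.79, -0.07 and -2.58, over transcripts mostly near 0 CPM. None of the 56 genes had an unadjusted p under 0.05 in the fit of 12 mice. Complement C3, made by hepatocytes and also by myeloid cells, was present in all 12 mice, at 19.7 CPM in the lowest vehicle animal and a median of 26.8 in the vehicle and 22.8 in the 200 mg/kg group. Removing the liver genes before normalization left 0 DEGs and 2153 genes at an unadjusted p under 0.05.

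Genes of other tissues were found as well. Skeletal muscle genes were at a list level of 3.20 (mean log2(CPM + 1)) in vehicle mouse 16 and 0.47 to 0.61 in the other 11, with Ckm, muscle creatine kinase, at 19.1 CPM in mouse 16. Of 8 muscle genes, 5 were lower and 0 higher at an unadjusted p under 0.05, with a median log2 fold change of -4.42. Over the omissions of 1 mouse this median ran from -4.69 to 0.05. At an unadjusted p under 0.05, 3.9% of all genes were lower. Fibroblast and stellate cell genes, collagens among them, were highest in vehicle mice 17 (2.45) and 16 (2.01) and at 0.59 to 1.18 elsewhere. Of 9 such genes, 4 were lower and 0 higher at that limit, with a median of -2.24 that ran from -3.46 to -0.53 over the omissions of 1 mouse. The adipocyte list was at 1.46 to 3.25 in 7 mice, vehicle mice 13 to 17 and 200 mg/kg mice 20 and 22, and at 0.34 to 0.49 in the other 5. Its median log2 fold change was -1.18 over 8 genes, with 1 lower at an unadjusted p under 0.05. Fabp4, the fatty acid carrier of adipocytes, ranged from 1.37 to 23.3 CPM (median 13.1) in vehicle mice and from 1.37 to 31.1 (median 1.72) at 200 mg/kg, with mouse 20 highest. Kidney genes stayed at levels of at most 0.30. Their part in the other results was not tested beyond the fits without these mice.

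The blood-cell lists together held 202 tested genes, of which 0 were called, 20 had an unadjusted p under 0.05 with higher and 3 with lower values at 200 mg/kg, and 0 separated the groups without overlap. At an unadjusted p under 0.05, 5.11% of all genes were higher and 3.9% lower. Among genes of at least 1 CPM, as 186 of the 202 were, these shares were 7.55% and 4.48%. Over all genes the share without overlap was 0.13% with higher and 0.16% with lower values. For 144 of the 202 genes (71.3%) the 95% interval excluded a 2-fold change, and 3 genes were past 2-fold, Fn1, Hba-x and Wfdc21. The interval lay inside 2-fold for 58% of all genes and for 86.6% of genes of at least 1 CPM.

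Red cell genes gave the largest share of the 20. The 4 red cell lists together held 53 tested genes, 51 with a log2 fold change above 0 (44.4% of all genes tested were above 0), 15 with an unadjusted p under 0.05 and 0 called. Their median log2 fold change was 0.46, which is 0.50 above the median of all genes. Scaling by total counts moved the median of all genes from -0.04 to -0.27. On that scale the red cell median was 0.17 with 43 genes above 0, 11 higher and 1 lower at an unadjusted p under 0.05, and it stood 0.45 above all genes. The number under 0.05 was 7 without mouse 22, where the median was 0.26, and it was 8 without mouse 21 and 24 without vehicle mouse 15 or 200 mg/kg mouse 23, and 9 without vehicle mouse 14. With mice 17, 21 and 22 all left out, a fit added after the data had been seen, 1 gene was under 0.05 and the median was 0.22.

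Membrane and skeleton genes had 9 of 16 members at an unadjusted p under 0.05, all 9 higher, and a median log2 fold change of 0.56. Ermap, which encodes an erythroid membrane-associated protein, was at 55.0 CPM in the lowest vehicle mouse, 87.3 at the median and 105 in the highest, and at 91.8, 115 and 275 in the 200 mg/kg mice. The ranges overlapped, with the vehicle mice lower at each of the 3 points. Its log2 fold change was 0.71 ± 0.26 (SE) with an edgeR adjusted p of 0.546. Rhd and Epb42, the Rh blood group antigen and a membrane skeleton protein, had log2 fold changes of 0.61 and 0.65. Epb41, another skeleton protein, had a log2 fold change of 0.02 ± 0.43 and was at 7466 to 20034 CPM in vehicle mice and 8523 to 21700 at 200 mg/kg, so that the groups overlapped almost fully. Its sign changed with total counts, to -0.26. List levels were 7.13 to 8.07 (median 7.87) in vehicle mice and 7.74 to 8.89 (median 8.13) at 200 mg/kg, with mouse 22 the highest and mouse 14 the lowest of the 12.

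Heme synthesis and iron uptake genes had 4 of 13 members at an unadjusted p under 0.05, all higher, with a median of 0.40. Without mouse 22 there was 1 such member and the median was 0.20, and leaving out mouse 13, 14 or 21 gave 2. Urod, uroporphyrinogen decarboxylase, was at 126 to 255 CPM (median 176) in vehicle mice and at 195 to 451 CPM (median 259) at 200 mg/kg. Its log2 fold change was 0.62 ± 0.22, and Abcb10 and Ppox of the same list gave 0.57 and 0.36. Alas2, the rate-limiting enzyme of red cell heme synthesis, was at 29059 to 51452 CPM (median 40195) against 33177 to 102535 (median 51598). The highest of these was mouse 22, and the log2 fold change of 0.49 ± 0.64 became 0.24 without that animal.

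The regulators of red cell maturation had 2 of 17 members at an unadjusted p under 0.05 and a median of 0.41. Klf1, the erythroid master transcription factor, was at 2.33 to 5.19 CPM (median 3.59) in vehicle mice and 4.73 to 11.2 CPM (median 5.54) at 200 mg/kg. Its log2 fold change was 0.83 ± 0.23 with a 95% interval of 0.34 to 1.33, and leaving out mouse 22 gave 0.61. Lmo2, a partner of the erythroid GATA and TAL1 complex, was the other member, at 0.44. Bnip3l, the receptor by which reticulocytes clear mitochondria, had a log2 fold change of 0.61 ± 0.39. Of 7 tested globin genes 0 were under 0.05, with a median of 0.57. Hbb-bt, an adult beta globin gene, was at 2096 to 4415 CPM (median 2999) and 3185 to 7486 CPM (median 3968), a log2 fold change of 0.57 ± 0.28. In the reference genome Hbb-bt and Hbb-bs are near-identical copies, as are Hba-a1 and Hba-a2, and the split of reads between them is uncertain.

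Platelet genes had 3 of 19 members at an unadjusted p under 0.05, all higher, and a median of 0.39 that fell to 0.08 with total counts, where 0 members were higher and 1 lower at that limit, and to 0.14 without mouse 22. Gp9, a subunit of the von Willebrand factor receptor, was at 129 to 286 CPM (median 176) in vehicle mice and at 215 to 551 CPM (median 264) at 200 mg/kg. The log2 fold change was 0.68 ± 0.26. Ppbp, the platelet basic protein, was at 1179 to 2561 CPM (median 1779) against 1784 to 4609 CPM (median 2223). Mouse 22 was again the highest animal for both genes. Leaving out mouse 22 left 0 platelet genes under 0.05, and leaving out mouse 23 gave 7. The other single omissions gave 1 to 6.

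**Figure D2:**
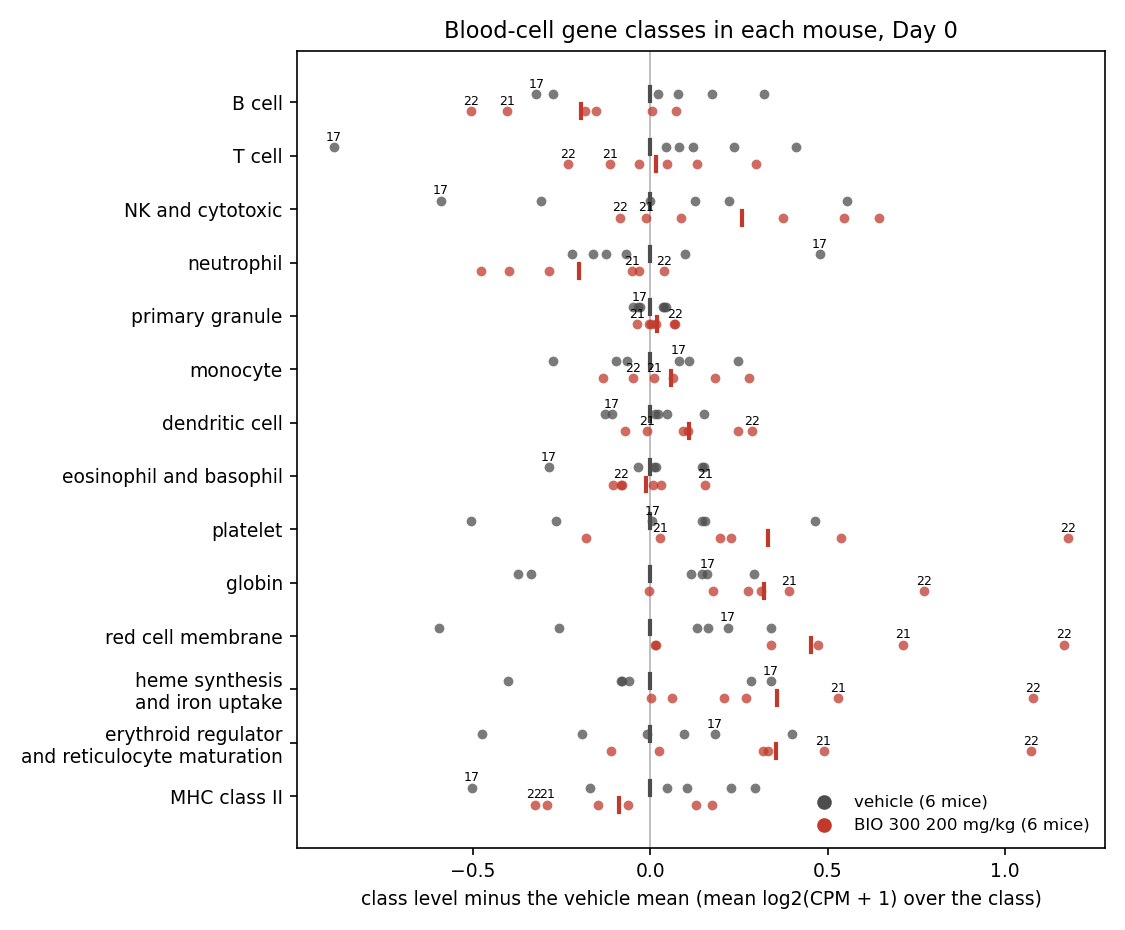
Level of 14 blood-cell gene classes in each mouse (mean log2(CPM + 1) over the tested genes of the class, x axis, as the difference from the mean of the 6 vehicle mice). Points are mice, vertical bars are group means, and mice 17, 21 and 22 carry their numbers. Mouse 22 is highest for platelet and all 4 red cell classes, and mouse 17 lowest for B cell, T cell, NK and MHC class II among the vehicle mice.

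B cell genes had lower estimates at 200 mg/kg in 17 of 17 members, all with 95% intervals inside 2-fold, and 1 had an unadjusted p under 0.05. Their median was -0.19, and Ighm, the heavy chain of IgM, was at 488 to 736 CPM (median 580) in vehicle mice and 402 to 603 CPM (median 520) at 200 mg/kg. Cd72, an inhibitory coreceptor of B cells, was at 16.3 to 21.8 CPM (median 18.9) and 10.7 to 18.5 CPM (median 16.6), a log2 fold change of -0.30 ± 0.13. The list had 5 members lower at an unadjusted p under 0.05 without mouse 17, whose B cell level (6.43) was the lowest of the vehicle mice, and 0 without any 1 of mice 13, 14, 16 and 21. MHC class II genes, the peptide-presenting molecules of B cells and dendritic cells, had a median of -0.11, with 9 of 10 members below 0 and 0 under 0.05.

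T cell genes sat at the median of all genes. Their median log2 fold change was -0.04 (-0.04 over all genes), 0 of 22 members had an unadjusted p under 0.05, and all 22 intervals lay inside 2-fold. Tcf7, a transcription factor of naive T cells, was at 80.4 to 203 CPM (median 161) in vehicle mice and at 119 to 174 CPM (median 149) at 200 mg/kg, with a log2 fold change of -0.09 ± 0.18. Vehicle mouse 17 was again the low animal, and without it the T cell median was -0.17. NK and cytotoxic genes had a median of 0.25, with 2 of 15 members at an unadjusted p under 0.05. Gzma, granzyme A of cytotoxic granules, was at 27.6 to 75.3 CPM (median 47.4) against 52.2 to 105 CPM (median 64.4), a log2 fold change of 0.57 ± 0.26. Ncr1, the NK receptor NKp46, had a log2 fold change of 0.51 ± 0.22. Leaving out any 1 of mice 15, 16, 17, 19, 23 and 24 left 0 of them under 0.05, as did total counts, while leaving out vehicle mouse 13 gave 5.

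Neutrophil genes had a median of -0.28, with 16 of 19 members below 0 and 2 lower at an unadjusted p under 0.05, Mmp9 and the cathelicidin gene Camp (under 1 CPM in each mouse). Mmp9, the gelatinase of neutrophil tertiary granules, was at 45.3 to 64.0 CPM (median 50.2) in vehicle mice and at 25.0 to 48.0 CPM (median 37.9) at 200 mg/kg. Only the top of the 200 mg/kg range entered the vehicle range. The log2 fold change was -0.51 ± 0.15 with a 95% interval of -0.83 to -0.19 and an edgeR adjusted p of 0.546. Csf3r, the receptor for G-CSF, was at 201 to 298 CPM (median 241) against 172 to 243 CPM (median 201), a log2 fold change of -0.27 ± 0.13. The number of neutrophil members lower at an unadjusted p under 0.05 was 12 with total counts, where 8.62% of all genes were lower at that limit, and over the single omissions from 1 without mouse 15 or 23 to 5 without mouse 24. Primary granule genes such as Ctsg and Prtn3, which mark promyelocytes, were near 0 in both groups (Ctsg 0.13 to 0.26 and 0.09 to 0.31 CPM).

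The monocyte, dendritic cell, and eosinophil and basophil lists had 0 members at an unadjusted p under 0.05. Their medians were 0.13 for monocytes, 0.13 for dendritic cells and 0.03 for eosinophils and basophils. Lyz2, lysozyme of monocytes and neutrophils, was at 468 to 769 CPM (median 721) in vehicle mice and 624 to 953 CPM (median 821) at 200 mg/kg. Irf8, a lineage factor of monocytes and dendritic cells, had a log2 fold change of 0.04 ± 0.12. Fn1, fibronectin, is made by monocytes and in far larger amounts by liver, and its range was 29.2 to 534 CPM in vehicle mice and 21.2 to 139 CPM at 200 mg/kg. Its log2 fold change of -1.41 ± 0.78 became -0.15 without mouse 17.

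**Figure D3:**
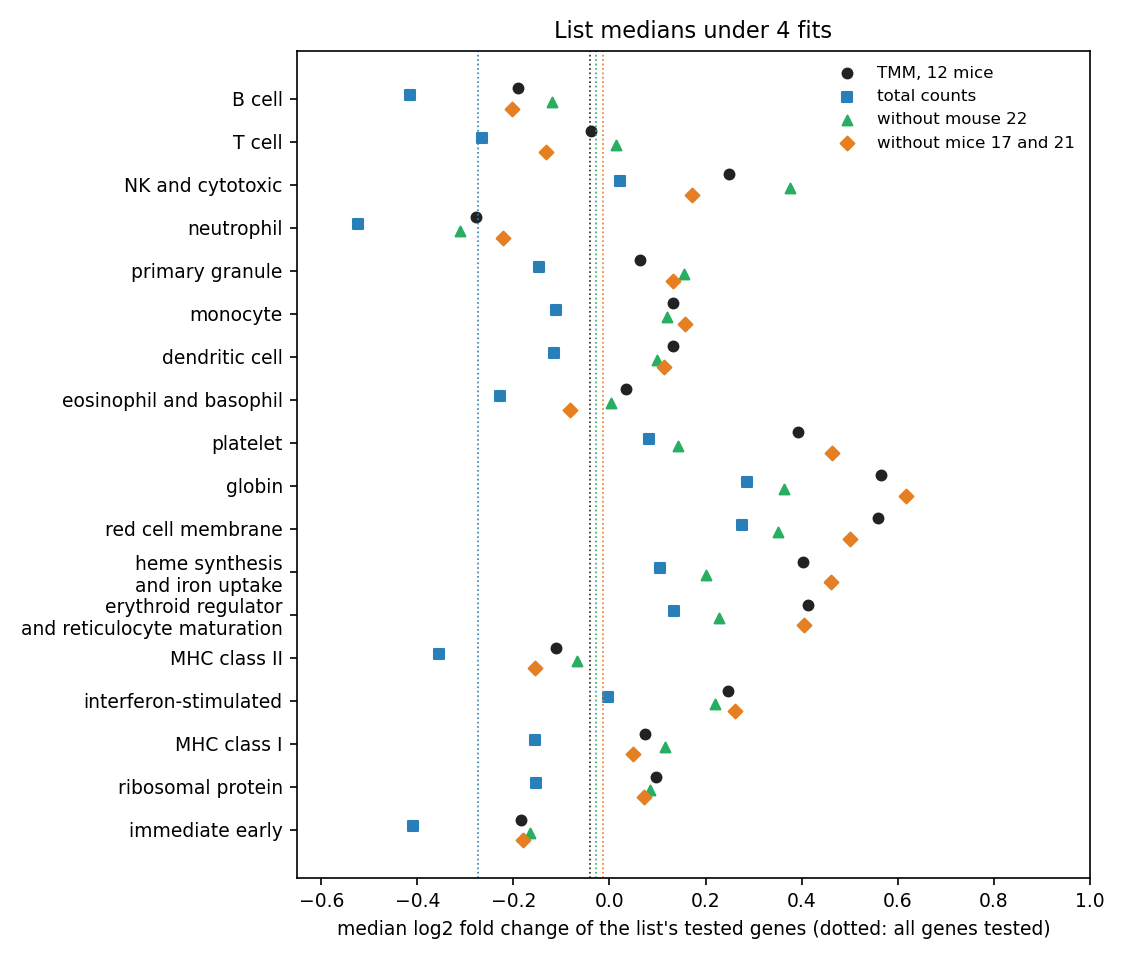
Median log2 fold change (x axis, 200 mg/kg over vehicle) of the tested genes in 14 blood-cell classes and 4 further lists under 4 fits, with dotted lines at the median of all genes in each fit. Total counts in place of TMM shifted all lists to the left together with the median of all genes, from -0.04 to -0.27, and leaving out mouse 22 lowered the platelet median from 0.39 to 0.14.

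Genes induced by type I interferon encode antiviral effectors and sensors, and many carry an interferon-stimulated response element (ISRE) in their promoters. They had 7 of 26 members at an unadjusted p under 0.05, all 7 higher, and 0 called. The 7 were Cmpk2, Isg15, Ifit1, Xaf1, Usp18, Irf7 and Oas3. At that limit 5.11% of all genes were higher, and 7.55% of genes of at least 1 CPM. Promoters are shown as background only. The list was made of known interferon-induced genes, so its share with an ISRE does not depend on the counts. That share says nothing about the difference between the groups. RefSeq (GRCm38.p6) promoters, 250 bases before to 50 after the transcription start, were given for 17 of the 26 genes, and 10 of the 17 held the ISRE core on either strand, which is GAAA, any 2 bases and GAAA again, counting a promoter with overlapping matches as 1. Of all 27025 genes with a promoter, 3.99% held it. Of the 7 genes, 6 had a promoter and 3 held the core, Isg15, Ifit1 and Oas3. Their 150 bases before the start are printed 5′ to 3′ on the gene's strand, with the core in capitals.
Isg15 (GRCm38.p6 chr4:156200819-156200968, minus strand): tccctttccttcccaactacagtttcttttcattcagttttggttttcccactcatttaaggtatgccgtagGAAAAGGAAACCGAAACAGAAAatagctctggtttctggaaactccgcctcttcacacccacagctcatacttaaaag
Ifit1 (GRCm38.p6 chr19:34640739-34640888, plus strand): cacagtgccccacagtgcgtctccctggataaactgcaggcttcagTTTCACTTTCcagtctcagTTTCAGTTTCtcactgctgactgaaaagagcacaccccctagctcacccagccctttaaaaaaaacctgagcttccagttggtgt
Oas3 (GRCm38.p6 chr5:120777660-120777809, minus strand): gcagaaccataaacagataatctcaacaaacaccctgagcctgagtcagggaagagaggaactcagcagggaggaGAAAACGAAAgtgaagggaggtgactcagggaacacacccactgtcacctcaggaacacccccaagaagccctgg
Isg15 held 3 overlapping matches and Ifit1 held 2 separate ones on the opposite strand. A match is a run of letters and not a measured binding site.

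Isg15, a ubiquitin-like modifier, was at 46.4 to 80.1 CPM (median 52.5) in vehicle mice and 76.0 to 142 CPM (median 94.1) at 200 mg/kg. The lowest 2 of the treated mice lay just under the highest vehicle mouse. Its log2 fold change was 0.81 ± 0.18 with a 95% interval of 0.42 to 1.21, an unadjusted p of 0.000644 and an edgeR adjusted p of 0.546. Ifit1, a binder of viral RNA caps, was at 14.8 to 21.1 CPM (median 17.8) and 20.4 to 32.5 CPM (median 26.8), a log2 fold change of 0.58 ± 0.14. Cmpk2, a mitochondrial nucleotide kinase encoded beside Rsad2, was at 10.3 to 15.8 CPM (median 12.6) and 15.4 to 20.2 CPM (median 18.3), with a log2 fold change of 0.51 ± 0.11. DESeq2 gave Cmpk2 an adjusted p of 0.0260, and the adjusted p over the 27 alternative fits ran from 0.0260 to 0.882. Rsad2 itself, viperin, was at 2439 to 4164 CPM against 3220 to 7810 CPM, a log2 fold change of 0.47 ± 0.28.

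The list median was 0.25, with 20 of 26 members above 0. Leaving out each mouse in turn kept the number of members at an unadjusted p under 0.05 at 7 or 8, all with higher values, and the median at 0.16 to 0.29. Without mice 17, 21 and 22 there were 7, and without mice 16, 17 and 21 there were 4. Over the omissions of 1 mouse, 641 to 1692 of all genes tested were higher at an unadjusted p under 0.05. Scaled by total counts 1 member, Isg15, was under 0.05 (1.26% of all genes were higher at that limit) and the list median was -0.00, against -0.27 over all genes. Trim21, an interferon-induced cytosolic antibody receptor outside the list, was picked from all genes for its small p and lack of overlap. Of genes of at least 1 CPM, 0.141% had no overlap with higher values. Trim21 was at 14.5 to 17.1 CPM in vehicle mice and 18.2 to 22.8 CPM at 200 mg/kg, a log2 fold change of 0.33 ± 0.07. With total counts its log2 fold change was 0.07. MHC class I genes, also raised by interferon, had a median of 0.07 with 1 of 14 under 0.05, B2m, at 551 to 827 CPM (median 764) against 764 to 1258 CPM (median 884).

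Npas2, a paralog of the core clock transcription factor Clock, had the smallest p of all genes. Its gene lies on chromosome 1 from 39193731 to 39363236 on the plus strand (GRCm38). Npas2 was at 0.09 to 0.63 CPM (median 0.26) in vehicle mice and at 1.20 to 2.73 CPM (median 1.63) in 200 mg/kg mice, from 3 to 19 and 27 to 56 reads. All 6 treated mice lay above all 6 vehicle mice. The log2 fold change was 2.41 ± 0.40 with a 95% interval of 1.54 to 3.27, an unadjusted p of 4.5e-05 and an edgeR adjusted p of 0.546. DESeq2 gave an adjusted p of 9.8e-06, a fit of all 24 Day 0 mice with edgeR gave 0.0392, and over the 27 alternatives the log2 fold change was 2.12 to 2.69 while the adjusted p reached 0.811. Whether Npas2 is called thus turned on the tool and the mice in the fit.

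In the 24 mice bled on Day 0, scaled together, the medians of Npas2 were ordered by dose. Its CPM was 0.11 to 0.74 (median 0.30) with vehicle, 0.17 to 0.59 (median 0.41) at 50 mg/kg, 0.65 to 1.99 (median 0.96) at 100 mg/kg and 1.41 to 3.23 (median 1.91) at 200 mg/kg. Vehicle and 50 mg/kg mice overlapped fully, and the 100 mg/kg mice overlapped the vehicle mice at their lower and the 200 mg/kg mice at their upper end. Tested directly, 200 against 50 mg/kg gave a log2 fold change of 2.37 ± 0.27 (edgeR adjusted p = 2.8e-04), and 200 against 100 mg/kg gave 1.01 ± 0.29 with a 95% interval of 0.39 to 1.63 (edgeR adjusted p = 0.840). Against the same 6 vehicle mice, the log2 fold changes of the lower doses were 0.06 at 50 and 1.41 at 100 mg/kg. Npas2 was picked by its p in the 200 mg/kg and vehicle mice. Both direct tests and the fit of 24 mice reuse the 200 mg/kg mice and are not independent of that choice. Between 200 and 50 mg/kg, 8.57% of all genes were DEGs and 38.1% had an unadjusted p under 0.05.

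**Figure D4:**
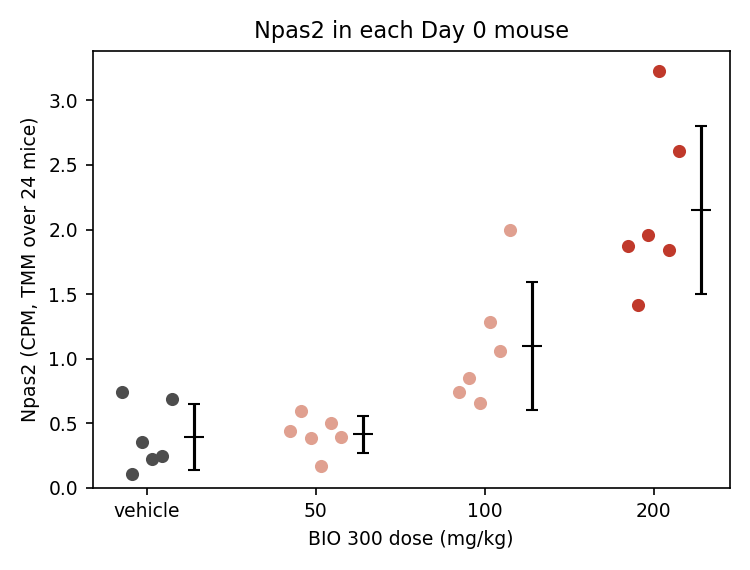
Npas2 in each of the 24 Day 0 mice (CPM on a TMM scale of the 24 mice, y axis) by BIO 300 dose (x axis), with the mean ± SD of 6 mice beside each group. The 6 mice at 200 mg/kg (1.41 to 3.23 CPM) lie above all vehicle (at most 0.74) and all 50 mg/kg mice (at most 0.59).

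Of the 17 clock genes tested, Npas2 included, 15 were below 0 and the median log2 fold change was -0.34, which was -0.06 without vehicle mouse 17. In that liver-bearing library the output genes Nr1d1, Hlf and Dbp, which are abundant in liver, were the highest of the 12 mice, for example Nr1d1 at 21.6 CPM against a group median of 2.02. Clock was at 17.1 to 25.6 CPM in vehicle mice and 19.7 to 21.0 CPM at 200 mg/kg, a log2 fold change of -0.08 ± 0.09. Bhlhe40 was the only other clock gene under an unadjusted p of 0.05, at -0.63 ± 0.27, with its highest value, 36.1 CPM, also in mouse 17.

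Beyond Npas2 and Trim21, the genes of at least 1 CPM with the smallest p and no overlap were mostly scarce. Gm32051, a long noncoding RNA gene on chromosome 5 (105409367 to 105415670), was at 0.72 to 1.43 CPM in vehicle mice and 1.80 to 3.54 CPM at 200 mg/kg, a log2 fold change of 1.28 ± 0.22 that DESeq2 called (adjusted p = 0.0040, with a range of 0.0040 to 0.811 over the alternatives). Gm14862, a predicted gene on chromosome X, was at 0.87 to 1.57 CPM and 1.63 to 4.06 CPM. Both were higher at 200 than at 50 mg/kg in the direct test, with log2 fold changes of 2.29 and 2.60 (edgeR adjusted p = 2.8e-04 for Gm32051). The 50 mg/kg mice were themselves below vehicle on the scale of 24 mice. Medians with vehicle, 50 and 200 mg/kg were 1.10, 0.457 and 2.45 CPM for Gm32051, and 1.34, 0.482 and 2.89 CPM for Gm14862. Rpl34-ps1 is a processed pseudogene whose reads may belong to its parent gene, and it had a log2 fold change of 0.68 ± 0.14. Cfap126, Tma7 and Shc4, a cilium protein, a small translation-machinery protein and a signalling adaptor, had log2 fold changes of 0.92, 0.68 and 0.88. A pair of genes separated the groups with lower values, Slc27a4, a fatty acid transporter (10.8 to 13.5 against 8.71 to 10.3 CPM), and Antxr2, an anthrax toxin receptor (29.1 to 32.9 against 23.9 to 27.9 CPM). Their log2 fold changes were -0.35 ± 0.08 and -0.25 ± 0.06. Of genes that averaged at least 1 CPM, 19 (0.141%) had no overlap with higher and 31 (0.230%) with lower values.

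**Figure D5:**
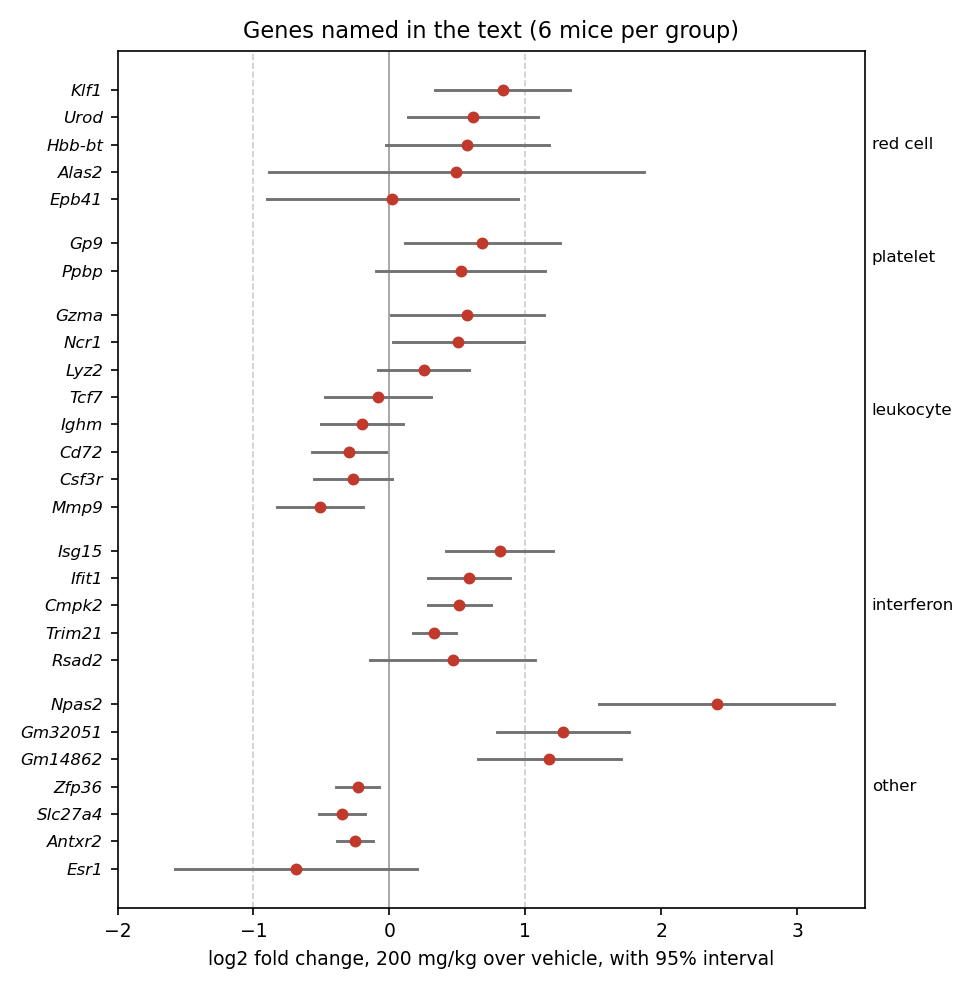
Log2 fold change (200 mg/kg over vehicle, points) with its 95% interval from edgeR (lines) for 27 genes named in the text, grouped by class. Dashed lines mark 2-fold. The intervals of Npas2 (1.54 to 3.27), Isg15 (0.42 to 1.21) and Mmp9 (-0.83 to -0.19) exclude 0, those of Epb41 and Alas2 do not.

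Receptors and targets of genistein were examined as a list. Esr2, the estrogen receptor beta gene, had 8 reads in all over the 12 mice and was not tested. Esr1, estrogen receptor alpha, was at 1.62 to 11.1 CPM (median 2.88) in vehicle mice and at 1.80 to 3.51 CPM (median 2.41) at 200 mg/kg. The high vehicle value was mouse 17, and the log2 fold change of -0.68 ± 0.41 became -0.06 without it. Of 14 tested genes of the estrogen receptor list, 1 had an unadjusted p under 0.05, the coactivator Ncoa3, at -0.32 ± 0.12. At that limit 5.11% of all genes were higher and 3.9% lower. In the aryl hydrocarbon receptor list 2 of 9 were higher and 2 lower at that limit. Nqo1, a quinone reductase also counted under NRF2, was among the higher, at 5.25 to 14.6 CPM (median 9.16) against 9.82 to 23.6 CPM (median 14.6). The lower pair were the receptor gene Ahr itself, with a log2 fold change of -0.42 ± 0.15, and Cyp1b1, at most 0.56 CPM in any mouse. Cyp1a2, a hepatocyte cytochrome P450, reached 56.6 CPM in the vehicle and 17.5 CPM in the 200 mg/kg group and had a median of 0 in both.

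Stress and signalling lists were examined last. At an unadjusted p under 0.05, 5.11% of all genes were higher and 3.9% lower. Among genes of at least 1 CPM these shares were 7.55% and 4.48%, and the counts below are to be read beside them. The immediate early genes had a median of -0.19 with 15 of 18 below 0, 3 of them under an unadjusted p of 0.05, Zfp36, Junb and Ier2. Zfp36, which destabilizes cytokine messages, was at 73.5 to 81.4 CPM in vehicle mice and 55.7 to 71.8 CPM at 200 mg/kg without overlap, a log2 fold change of -0.23 ± 0.07. Of genes of at least 1 CPM, 0.23% had no overlap with lower values. The number of lower immediate early members was 2 to 6 over the single omissions, with 6 without mouse 17 and 5 without mouse 24. The medians were -0.10 for toll-like receptor, -0.02 for cytokine, 0.05 for S100, -0.04 for p53 target, -0.06 for NRF2, -0.14 for glucocorticoid-responsive and -0.17 for heat shock genes. Without mouse 17 the NRF2 median was 0.20 and that of heat shock genes -0.03. At an unadjusted p under 0.05, 3 of 18 cytokine and 3 of 12 S100 genes were higher and 0 lower, with 1 to 3 higher in each list over the single omissions. Tlr11 and Ccl4, a receptor for microbial profilin and flagellin and a chemokine of activated leukocytes, had the smallest p of their lists, with log2 fold changes of 0.81 ± 0.24 and 0.77 ± 0.22 at 0.65 to 2.99 and 0.72 to 2.39 CPM. Ribosomal protein genes had a median of 0.10 with 10 of 82 higher and 0 lower at an unadjusted p under 0.05, and from 3 without mouse 13 to 18 without mouse 18 over the single omissions. Proteasome genes had a median of -0.01 with 2 higher and 2 lower of 38. Histone genes had 6 higher and 5 lower of 75, and mitochondrially encoded genes 0 of 11. The list named structural noncoding RNA also holds the protein-coding gene Lars2 and the long noncoding RNAs Malat1 and Neat1. It had a median of 0.32 with 3 of 18 higher, the 7SL copies Rn7s1 and Rn7s2 among them. Leaving out mouse 22 gave a median of 0.14 for this list, and scaling by total counts gave 0.08.

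In the direct comparisons between doses the vehicle mice do not enter. Between 200 and 100 mg/kg, 0 of 23665 genes were DEGs (0%) with edgeR, and 0 with DESeq2, while 1197 (5.06%) had an unadjusted p under 0.05. Between 200 and 50 mg/kg, 2069 of 24147 genes were DEGs (8.57%), and 9210 (38.1%) had an unadjusted p under 0.05. Red cell membrane genes were DEGs in 16 of 16 members, all higher at 200 mg/kg with a median log2 fold change of 2.16, and platelet genes in 17 of 19 with a median of 1.41. Against the vehicle mice that the 3 doses share, the median of the red cell membrane list was -1.71 at 50, -0.09 at 100 and 0.56 at 200 mg/kg. The platelet medians were -1.02, 0.01 and 0.39. The interferon-stimulated medians were -0.21, 0.19 and 0.25, the B cell medians 0.34, 0.06 and -0.19, and the neutrophil medians -0.31, -0.35 and -0.28.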

How the data were processed

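Whole-blood RNA of 12 mice was analysed from gene-level counts. Per the labels and the study's methods, the authors used Trimmomatic 0.36, STAR 2.5.2b, the GRCm38 genome and Subread 1.5.2, and deposited whole-number counts of 49315 genes without normalization. The annotation release was not given in the sources used here. The labels name poly(A) selection, whereas the methods name a stranded kit that removes ribosomal and globin transcripts. Deposited result tables hold the authors' fold changes, p-values and size-factor-normalized values and were not used. Symbols and positions came from GENCODE M21 (48970 of 49315 genes had a symbol), promoters from RefSeq.

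Genes with at least 10 counts summed over the 12 mice were fitted with edgeR 4.0.16 (glmQLFit, glmQLFTest, TMM) in R 4.3.3 with limma 3.58.1, and DESeq2 1.42.0 was the second tool. Genes were called DEGs past 2-fold in either direction where the Benjamini-Hochberg p stayed under 0.05. The standard error was the log2 fold change divided by the square root of F. Scripts were tested on simulated counts. List levels are means of log2(CPM + 1). Counts of different mice of a group differed beyond sampling noise (smallest chi-square per gene 20.0), and p-values measure the spread between these 6 mice per group. The alternatives were other normalizations, filters and tools, omission of each mouse, an odd or even animal number term, removal of liver genes and joint omissions. Lists had 14 blood classes, 18 pathways and 11 other tissues. The members and lists were chosen with earlier results of these data known.

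Named genes were, in each blood and pathway list, the member with the highest mean CPM and that with the smallest p, the 10 genes of at least 1 CPM with the smallest p and no overlap, genes called by either tool, Esr1 and Esr2, and 5 hepatocyte genes and 1 gene for each other tissue. Further list members were named after their values were seen, as examples or where a count is small. Some genes that the rule names are not reported here.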

Additional observations from a re-analysis of the deposited data

Results flagged for a closer look

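Of 166 groups of 6 mice examined (list levels, total counts and named genes), 27 held a mouse whose gap to its nearest neighbour, as a share of the group's range, exceeded Dixon's critical value for 6 samples. Chance alone gives about 1 in 20 groups, and many of these share a mouse.

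Vehicle mouse 17 gave 12 of the 27. Its gap was 0.966 for hepatocyte plasma proteins, 0.982 for hepatocyte enzymes and transporters, 0.982 for major urinary proteins, 0.782 for liver macrophage genes, 0.906 for Alb, 0.951 for Mup3 and 0.846 for C3. The same mouse was high for the circadian clock (0.875), aryl hydrocarbon receptor (0.773) and heat shock (0.628) lists and low for T cell genes (0.718), and low for the adrenal cortex list (0.694), which rests on 3 tested genes. Mouse 21 at 200 mg/kg gave 0.984, 0.998 and 0.997 for the 3 liver lists, 0.991 for Alb, 0.993 for Mup3, 0.783 for C3, 0.691 for the aryl hydrocarbon receptor list, which holds the hepatocyte gene Cyp1a2, and 0.796 for adrenal cortex. Mouse 22 at 200 mg/kg was highest for structural noncoding RNA (0.655), pancreas acinar genes (0.731), Tma7 (0.709) and Shc4 (0.726). Vehicle mouse 16 had the lowest total counts (0.886) and the highest skeletal muscle level (0.948). Vehicle mouse 18 was lowest for Fabp4 (0.709).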

How the results depend on the processing

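The count of 0 DEGs held in all but 2 of the 27 alternative fits. It was 2 with DESeq2 and 1, Npas2, in the fit of 24 Day 0 mice. Genes past 2-fold numbered 221 higher with total counts, 20 higher and 274 lower with filterByExpr, 2441 and 4746 with no filter, 853 higher in the fit of 24 mice, and 555 lower with limma voom. Without mouse 17 they were 1111 and 598 with the odd or even term, and 1169 and 579 with robust = TRUE. The lower count was 652 without mice 17 and 21, 472 without mice 16, 17 and 21, and 720 without mice 17, 21 and 22, where genes at an unadjusted p under 0.05 numbered 1186. These 3 fits were chosen after the data had been seen. Over the omissions of 1 mouse the DEG count was 0 to 0, the 2-fold counts 368 to 1169 higher and 579 to 2138 lower, unadjusted calls 1283 (without mouse 22) to 2838 (without mouse 17), and genes inside 2-fold 13131 to 14249. With total counts the unadjusted calls split into 299 higher and 2051 lower, against 1217 and 928. Over the omissions of 1 mouse the higher calls ran from 641 (without mouse 22) to 1692 (without mouse 17). The lower calls ran from 642 (without mouse 22) to 1424 (without mouse 21). Counts of list members over these omissions are to be read beside those of all genes. The difference in total counts was 0.906 to 3.10 M (mega-counts), and its exact permutation p reached 0.0260 without mouse 19. DEGs between 200 and 100 mg/kg were 0 to 0 over the omissions, and those between 200 and 50 mg/kg 1614 to 2270 and 10599 with total counts.

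A sign change was counted for a named gene only where a 95% interval excluded 0. This occurred for liver genes without mouse 17: Alb 8.86, 8.49 with the odd or even term, Apob 7.80 and 7.47, Mup3 8.12 and 7.76, Cyp3a11 9.97 and 9.70, and Serpina3k 8.71, with robust = TRUE leaving the values as without the mouse alone. Over the omissions of 1 mouse the lowest values, without mouse 21, were -15.69 for Alb, -15.00 for Apob, -13.43 for Mup3, -14.05 for Cyp3a11 and -13.56 for Serpina3k. Mice 17 and 21 hold those transcripts. No paired analysis was possible because the groups share no animal numbers. The odd or even term left 0 DEGs and 1972 unadjusted calls. Depth limits genes such as Npas2, Esr2 and the embryonic globins.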
